A study of Mus musculus with 95 samples.

Results

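The genes described here are the potassium channel genes of mouse cortex, taken as every gene of the deposited count table whose symbol starts with Kcn. Of 98 such genes 94 were kept, out of 39179 genes in the table. Kcne2, Kcnk3, Kcnj8 and Kcnj10 were left out by the rule. The 94 comprise 17 voltage-gated pore subunits (Kcna, Kcnb, Kcnc and Kcnd), 10 silent subunits that only modify other channels (Kcnf, Kcng, Kcns and Kcnv), 5 KCNQ genes, 8 genes of the EAG, ERG and ELK group (Kcnh), 13 inward rectifiers (Kcnj), 13 leak channels with a double pore domain (Kcnk), 8 calcium- or sodium-activated channels (Kcnma, Kcnn, Kcnt and Kcnu), 15 auxiliary subunits (Kcnab, Kcnip, Kcne and Kcnmb), 4 antisense transcripts and Kcnrg. The antisense transcripts (Kcnab3os, Kcnd3os, Kcnmb4os1 and Kcnmb4os2) share the prefix and are not taken to encode a channel subunit.

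The study sequenced messenger RNA from the cerebral cortex of C57BL/6 mice of both sexes at 6 and 10 months. The knock-in mice were heterozygous for a huntingtin allele with a CAG repeat of 20 (Q20), 50 (Q50), 92 (Q92) or 140 (Q140), the repeat whose expansion causes Huntington's disease. Wild-type mice were housed either with Q20 mice or with Q50 mice, whereas cages of Q92 and of Q140 held that line alone, so that Q92 and Q140 had no wild types of their own housing here. Each line and each wild-type group had 8 libraries at each age, 4 per sex, except Q140 at 10 months with 7. The labels number the libraries but do not state that each came from a separate animal, so p-values measure only the spread between libraries. Q20 and Q50 were each set against the 8 wild types from the same housing. Q92 and Q140 were set against the average of both wild-type sets (16 libraries), which these 2 lines share.

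Potassium channels carry the outward current that sets the resting potential, ends the action potential and spaces firing. Pore subunits assemble as multimers, and silent and auxiliary subunits change their gating, surface number or inactivation. In cortex, Kcnc channels allow fast spiking, Kcnd channels with Kcnip partners carry the transient A current of dendrites, KCNQ channels carry the M current, and G protein-gated Kcnj channels carry slow inhibition.

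Depth was similar throughout, with 30.3 M to 41.1 M estimated counts per library (median 34.1 M), of which the Kcn genes took 0.408% to 0.514%. The mean level of 10 cortical projection neuron markers lay between 6.29 and 6.38 log2 CPM (counts scaled to library size) in every group, and none of the 10 was at 0 in any group. The level of 15 markers of striatal projection neurons was not constant, however. The striatal ranges given here are over single libraries, unlike the group figures of the cortical markers. In 6-month libraries the striatal level lay at 3.82 to 4.29 log2 CPM in Q92 and 3.73 to 4.58 in Q140, below all 16 wild types (4.60 to 5.93). At 10 months it was 3.87 to 4.44 among wild types housed with Q20, 4.07 to 5.93 in those housed with Q50 and 3.87 to 6.37 in Q20. In bulk tissue, fewer cells of a type and less RNA per cell cannot be told apart. A further 2 libraries at 6 months, 1 of Q92 (male, replicate 3) and 1 of Q50 (female, replicate 4), had over 13% mitochondrial counts.

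The results turn on 3 genes, and the 250 bases before their start sites are shown for orientation (RefSeq, assembly GRCm38.p6, 5′ to 3′ on the strand of the gene). Kcna5 lies on chromosome 6, minus strand (chr6:126535556-126535805), Kcnj9 on chromosome 1, minus strand (chr1:172329323-172329572), and Kcnk13 on chromosome 12, plus strand (chr12:99964249-99964498). Capitals mark the single match to the motifs searched, a TATAAA 168 bases before the Kcnj9 start.
Kcna5: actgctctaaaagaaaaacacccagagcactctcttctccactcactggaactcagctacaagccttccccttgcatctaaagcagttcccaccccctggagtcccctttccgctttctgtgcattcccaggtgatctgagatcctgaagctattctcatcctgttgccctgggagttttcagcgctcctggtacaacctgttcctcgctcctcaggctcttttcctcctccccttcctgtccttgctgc
Kcnj9: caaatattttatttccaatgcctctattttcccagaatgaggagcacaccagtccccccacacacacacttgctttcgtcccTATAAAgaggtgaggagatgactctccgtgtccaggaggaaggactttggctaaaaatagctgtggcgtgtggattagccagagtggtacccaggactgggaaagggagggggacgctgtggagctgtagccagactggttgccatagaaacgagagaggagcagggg
Kcnk13: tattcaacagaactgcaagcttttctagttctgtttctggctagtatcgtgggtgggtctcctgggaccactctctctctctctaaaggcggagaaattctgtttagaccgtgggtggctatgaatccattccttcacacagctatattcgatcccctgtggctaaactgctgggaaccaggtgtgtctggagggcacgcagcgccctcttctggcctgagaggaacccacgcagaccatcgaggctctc

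Motifs were searched on both strands in the 92 promoters of the 68 Kcn genes matched by symbol and in all 32851 promoters of the table. GGGCGG was present in 41 of the 92 (44.6%, against 32.7% of all promoters), TATAAA in 3 (3.26%, against 12.4%) and TGACGTCA in 0 (against 1.55%). These matches describe the letters only.

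Expression was compared between genes as FPKM (fragments per kilobase, scaled to library size, as the authors deposited it), which accounts for gene length. Over the 32 wild-type libraries 35 Kcn genes averaged at least 10 FPKM, 34 lay between 1 and 10, 13 between 0.1 and 1, and 12 below 0.1. Kcnab2, a beta subunit of Kcna channels, was highest at 110 ± 6.03 FPKM (SD, n = 32). Kcnt1, a sodium-activated channel, stood at 53.8 ± 4.71, the Kcnd partner Kcnip2 at 48.9 ± 3.36 and the fast-spiking channel Kcnc1 at 47.5 ± 2.22. Within their groups the highest were Kcnf1 among silent subunits (28.0 ± 2.64), Kcnj4 among inward rectifiers (40.0 ± 3.96), Kcnh3 in the EAG, ERG and ELK group (35.9 ± 4.43) and Kcnk1 among leak channels (34.4 ± 2.0). The lowest were Kcnk16, with a count in 1 of 95 libraries, Kcnj1 in 13 and Kcnmb3 in 9. The filter on low counts kept 81 members for the tests at 6 months, 82 for those at 10 months and 84 where both ages were fitted together.

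**Figure D1:**
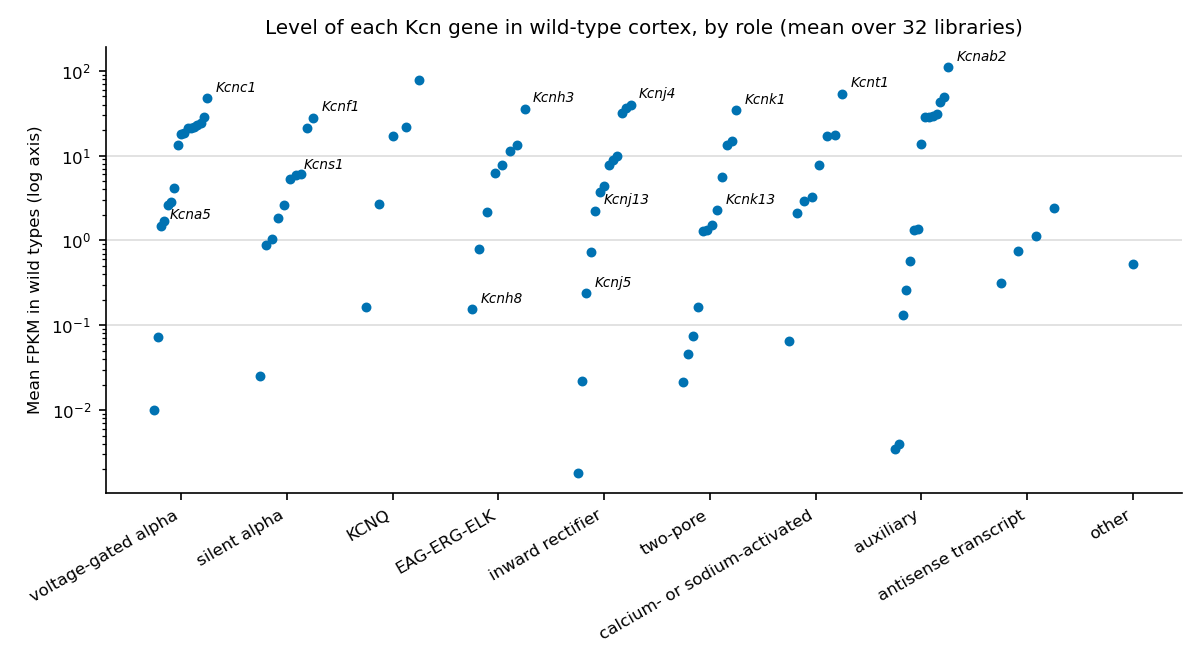
Each point is 1 Kcn gene at its mean FPKM over 32 wild-type libraries, on a log axis and sorted by role; Kcnk16, listed at 0 in all wild types, is not drawn. Grey lines mark 0.1, 1 and 10 FPKM, and Kcnab2 is highest at 110 FPKM.

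Spread between wild types differed between genes, which were not matched for level. Kcnj13, an inward rectifier known from the choroid plexus, ranged from 0.317 to 9.21 FPKM (mean 2.24 ± 2.43, SD, n = 32), and the summed CPM of 7 choroid plexus markers ranged from 12.2 to 1630 in the same libraries. Kcna2, a Kcna pore subunit of axons, ranged from 7.09 to 23.9 FPKM. By contrast Kcna6, another Kcna subunit, ranged only from 21.9 to 26.3 FPKM.

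The comparison of Q92 with wild type at 6 months held the most called Kcn genes among the 8 tests that set a line against wild type. Of 81 members tested, 13 rose and 7 fell at an adjusted p below 0.05 (24.7% of members, against 7.83% of all 17716 genes, 3.3% higher and 4.53% lower). Kcna5, a delayed-rectifier pore subunit, fell most. The rises were small and spread over voltage-gated, silent, inward rectifier, leak and auxiliary genes, among others. Here and below, p-values come from the quasi-likelihood test of edgeR, adjusted by Benjamini-Hochberg across every gene tested, and errors of log2 differences are standard errors.

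Kcna5 (ENSMUSG00000045534) ranged from 1.38 to 2.63 CPM (median 2.28) in the 8 Q92 libraries and from 3.44 to 6.56 CPM (median 5.75) in the 16 wild types. Every Q92 library lay below every wild type. The difference was -1.32 ± 0.14 on the log2 scale (adjusted p = 7.4e-09), with means of 2.10 ± 0.47 and 5.26 ± 1.06 CPM (SD). Kcnj5, a G protein-gated rectifier subunit best known from heart, ranged from 0.51 to 0.86 CPM (median 0.704) in Q92 and from 0.69 to 1.73 (median 1.19) in wild type. All 8 Q92 libraries lay below the wild-type mean, with overlap of the ranges (-0.80 ± 0.18, adjusted p = 0.0027). Kcnh8, of the ELK group, was scarce, at 0.206 to 0.485 CPM (median 0.388) in Q92 against 0.346 to 1.24 (median 0.653) in wild type. Its ranges overlapped as well, and it was lower in 8 of 8 (-0.85 ± 0.19, adjusted p = 0.0025).

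Among the rises, Kcnj9 (ENSMUSG00000038026), a G protein-gated inward rectifier subunit, had the smallest p. It ranged from 119 to 151 CPM (median 141) in Q92 and from 102 to 136 CPM (median 121) in wild type. The groups overlapped and 7 of 8 Q92 libraries lay above the wild-type mean, a difference of 0.21 ± 0.043 (adjusted p = 0.00061). Kcnj3, which forms the same kind of channel with Kcnj9, rose by 0.13 ± 0.038 (adjusted p = 0.026).

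Silent subunits supplied 3 rises and 1 fall among 9 tested. Kcnv1 ranged from 92.7 to 109 CPM (median 104) in Q92 and from 76.0 to 105 (median 88.4) in wild type. All 8 Q92 libraries exceeded the wild-type mean, with overlapping ranges (0.18 ± 0.038, adjusted p = 0.0010). Kcns3 ranged from 7.72 to 10.2 CPM (median 8.25) against 6.40 to 8.11 (median 7.19), again with 8 of 8 above the mean and some overlap (0.27 ± 0.059, adjusted p = 0.0013). Kcns1 rose by 0.27 ± 0.069 (adjusted p = 0.0080), and Kcng1 fell by 0.28 (SE 0.079, adjusted p = 0.017).

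Voltage-gated pore subunits split, with 2 rises and 3 falls among 15 tested. Kcnc2 and Kcnc4, of the fast-gating Kcnc group, rose by 0.13 ± 0.034 (adjusted p = 0.011) and 0.12 ± 0.038 (adjusted p = 0.033). The A-current genes Kcnd2 and Kcnd3 fell by 0.11 (SE 0.034, adjusted p = 0.038) and 0.16 (SE 0.053, adjusted p = 0.044). Kcnd3 has an antisense partner in the table, and since the use of strand in counting is not given in the sources used here, reads of such pairs cannot be told apart. The same holds for Kcnab3 and Kcnmb4.

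Further rises were those of Kcnk4, a mechanically gated leak channel (0.29 ± 0.067, adjusted p = 0.0032), the sodium-activated Kcnt2 (0.18 ± 0.050, 0.014), the ERG-type Kcnh7 (0.16 ± 0.048, 0.032) and the Kcna beta subunits Kcnab3 (0.16 ± 0.052, 0.043) and Kcnab2 (0.10 ± 0.032, 0.035). The accessory subunit Kcne1l fell by 0.38 (SE 0.12, adjusted p = 0.036). Over all 81 members the median log2 difference was 0.008, as it was 0.0044 over all genes, while the median size without sign was 0.106 against 0.061. Abundant subunits such as Kcnq3 (0.03 ± 0.054), Kcnc1 (0.01 ± 0.047), Kcnma1 (-0.11 ± 0.16) and Kcnt1 (-0.03 ± 0.036) did not pass the test.

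**Figure D2:**
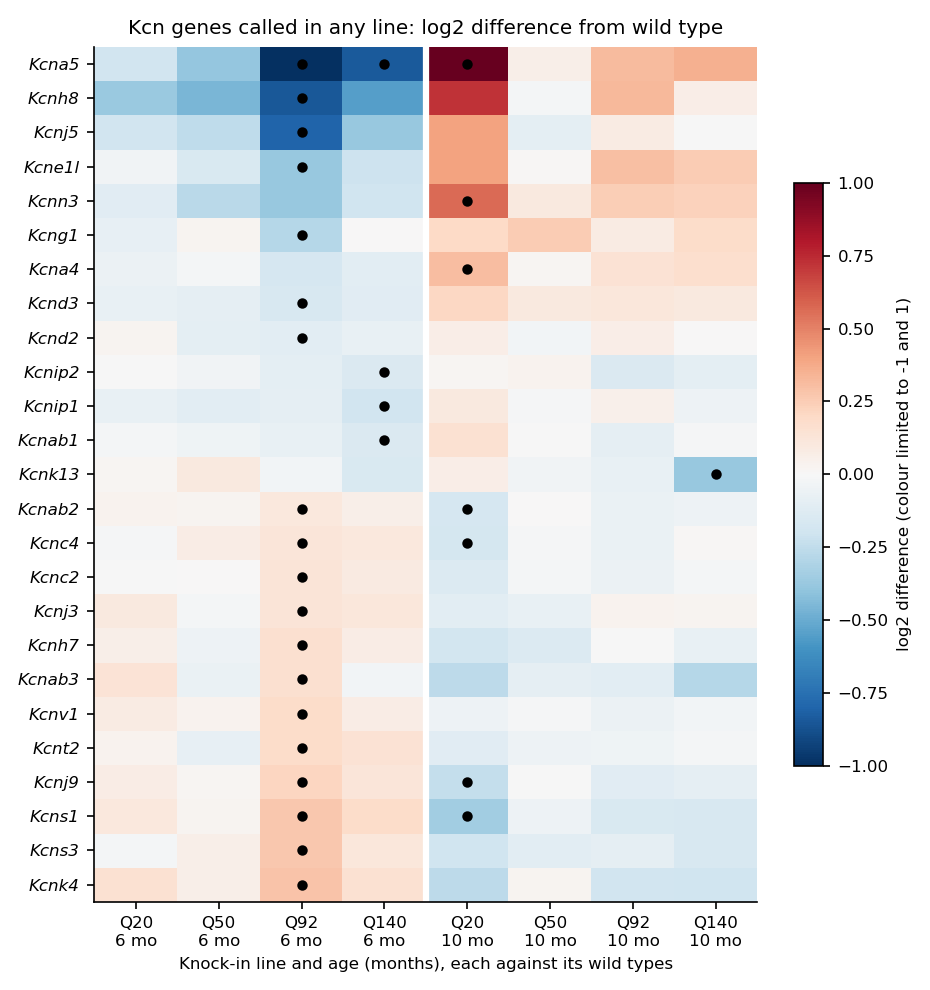
Colour gives the log2 difference from wild type of 25 Kcn genes called in at least 1 comparison of a line with wild type (rows), for 4 lines at 6 and 10 months (columns), limited to -1 and 1; dots mark calls at an adjusted p below 0.05. Dots are most numerous for Q92 at 6 months (19) and Q20 at 10 months (7).

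The striatal markers moved with this comparison. All 15 were lower in Q92 at 6 months (median log2 difference -1.13), as were 6 of 6 tested forebrain cholinergic markers (median -3.50; Slc18a3 is not in the table). The summed CPM of the 15 was 511 to 625 in Q92 and 725 to 1520 in wild type. Since the groups did not overlap, marker level and line cannot be told apart in these libraries. With the marker level as a covariate, an alternative chosen after seeing the data, 0 of 81 members were called. Of the 20 differences 19 kept their sign under it, and 3 kept at least 50% of their log2 size, Kcng1 (-0.22), Kcnk4 (0.18) and Kcne1l (-0.19). Kcna5 was -0.65 (adjusted p = 0.24). The median SE of the 20 was 0.082 with the covariate and 0.052 without it, so a lost call does not show that a difference was absent. Against the wild types housed with Q50 alone 5 members were called (3 higher, 2 lower), against those housed with Q20 alone 20. Shares of all genes called against a single wild-type group are not given, here or below. Such counts therefore do not show a result particular to Kcn genes. Kcna5 was called against either, at -1.16 (adjusted p = 1.3e-05) and -1.48 (adjusted p = 2.7e-09).

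Leaving out 1 library at a time gave 13 to 22 calls. The calls of Kcna5, Kcnj9, Kcnv1, Kcns3, Kcnh8, Kcnj5, Kcnk4, Kcns1, Kcnc2 and Kcnt2 held in all 48 refits. Kcng1 lost its call in 2 refits, Kcnj3 and Kcnc4 in 3 each, Kcnab2 in 4, Kcnh7 in 5, Kcnab3 and Kcne1l in 12 each, Kcnd2 in 30 and Kcnd3 in 33. The weakest refits left out Q92 libraries, for Kcnd3 male replicate 3 (adjusted p = 0.16), for Kcnd2 male replicate 2 (0.13), for Kcne1l male replicate 2 (0.11), for Kcnc4 male replicate 3 (0.12) and for Kcnab3 female replicate 4 (0.095). For Kcnj3 (female replicate 3, 0.075), Kcnab2 (female replicate 4, 0.074), Kcnh7 (male replicate 4, 0.073) and Kcng1 (male replicate 3, 0.063) they did so too.

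In Q140 at 6 months 0 members rose and 4 fell (4.94% of 81, against 3.52% of all genes, 1.39% higher and 2.13% lower). Kcna5 ranged from 1.90 to 3.90 CPM (median 2.92) in Q140, overlapping the wild types at the low end, and all 8 libraries lay below the wild-type mean. The difference was -0.84 ± 0.13 (adjusted p = 2.6e-05). The other 3 are auxiliary subunits, and none of the 12 auxiliary genes tested rose.

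Kcnip1, a calcium-binding partner of Kcnd channels, ranged from 20.7 to 25.6 CPM (median 21.8) against 21.9 to 28.5 (median 24.9) in wild type. The ranges overlapped and 7 of 8 libraries were below the mean (-0.19 ± 0.044, adjusted p = 0.0075). Kcnip2, of the same family, ranged from 100 to 118 CPM (median 112) against 112 to 139 (median 122). It was lower in 8 of 8 (-0.14 ± 0.038, adjusted p = 0.020), and the call was lost without Q140 female replicate 3 (0.060) or male replicate 4 (0.080). Kcnab1 ranged from 74.0 to 89.8 CPM (median 83.3) against 78.5 to 107 (median 89.8), lower in 8 of 8 with overlap (-0.15 ± 0.044, adjusted p = 0.046). Of 48 refits without 1 library 33 lost this call, the weakest without Q140 male replicate 2 (0.14). Its mean was 82.7 CPM in Q140, 84.8 in the wild types housed with Q50 and 99.4 in those housed with Q20. The 2 wild-type groups thus differed by more, 0.22 ± 0.050, without a call (adjusted p = 0.051). The 15 striatal markers were all lower here too (median -1.01). With their level as a covariate 0 members were called and Kcna5 stood at -0.21 (adjusted p = 0.58). Kcnip1 kept its size, at -0.21 (SE 0.069, adjusted p = 0.27), while Kcnip2 was -0.055 and Kcnab1 -0.013. The median SE of the 4 was 0.066 with the covariate and 0.044 without it, so a lost call does not show that a difference was absent. Marker level and line cannot be told apart in these libraries either. The counts were 1 against the wild types housed with Q50 alone, 8 against those housed with Q20 alone, and 8 without the 2 libraries of high mitochondrial share. Without Q140 male replicate 4 the count was 2, and without male replicate 2 it was 7.

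Q92 and Q140 share their wild types at each age. At 6 months Kcna5 was -1.32 in Q92 and -0.84 in Q140, Kcnj9 was 0.21 and 0.12 (not called in Q140, adjusted p = 0.11), Kcns1 was 0.27 and 0.18 (not called in Q140, 0.16), and Kcnip1 was -0.09 (not called in Q92, 0.22) and -0.19.

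In Q20 and Q50 at 6 months 0 of 81 members were called by the edgeR test, by DESeq2 or by limma. All genes gave 0.0169% called in Q20 (0.00564% lower) and 0.0226% in Q50, and 3 and 6 members had an unadjusted p below 0.05. Kcna5 averaged 5.15 CPM in Q20 against 5.85 in its wild types (-0.19 ± 0.13), and 3.57 in Q50 against 4.67 (-0.39 ± 0.14, adjusted p = 0.80). The striatal level averaged 5.51 and 5.52 log2 CPM in Q20 and its wild types, and 4.59 and 4.97 in Q50 and its wild types. For Q50 against both wild-type groups 1 member was called, lower.

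**Figure D3:**
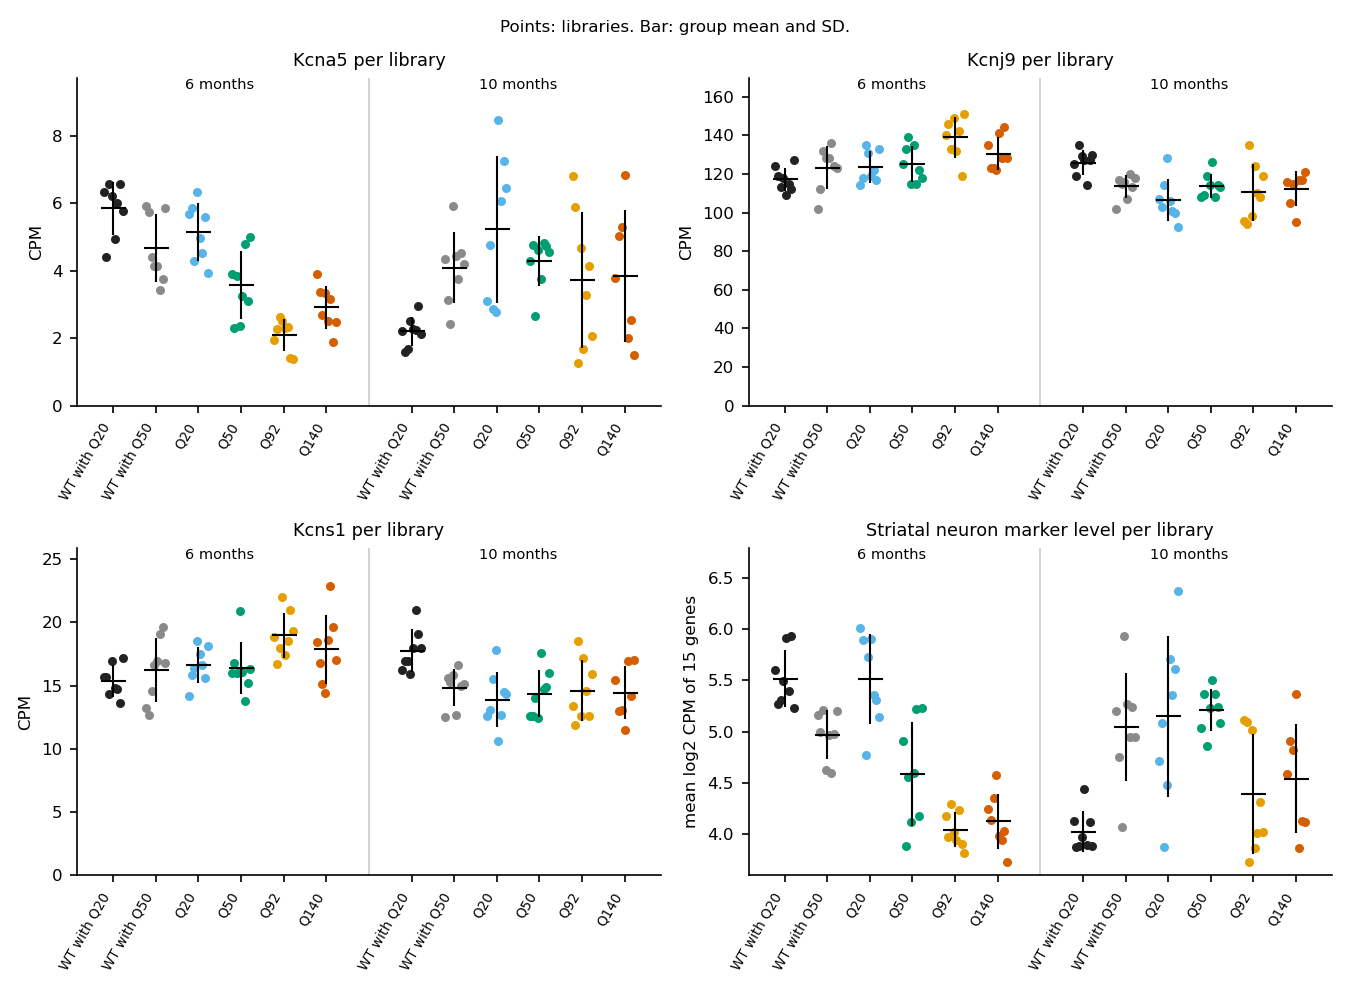
Values of every library by group for Kcna5, Kcnj9 and Kcns1 (CPM) and for the mean level of 15 striatal markers (log2 CPM), at 6 months (left of each panel) and 10 months (right); the bar is the group mean with its SD. At 6 months Kcna5 was 1.38 to 2.63 CPM in Q92 and 3.44 to 6.56 in wild type, and at 10 months 1.60 to 2.96 among wild types of the Q20 housing and 2.79 to 8.45 in Q20.

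At 10 months Q20 was the line with most called members, and Kcna5, now higher than in wild type, led again. Of 82 tested, 3 rose and 4 fell (8.54%, against 4.35% of 17813 genes, 2.56% higher and 1.79% lower). Kcna5 ranged from 2.79 to 8.45 CPM (median 5.41) in Q20 and from 1.60 to 2.96 (median 2.23) in the wild types housed with Q20. The groups touched at their edges and 8 of 8 Q20 libraries lay above the wild-type mean, a difference of 1.25 ± 0.29 (adjusted p = 0.019). The reference group was low, and the wild types housed with Q50 averaged 4.09 ± 1.04 CPM at this age. Within Q20, females held 2.79 to 4.77 CPM and males 6.06 to 8.45, without overlap. The striatal level was 3.87 to 5.08 log2 CPM in those females and 5.36 to 6.37 in the males. The part of sex in the Kcna5 difference was not tested.

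Kcnj9 ranged from 92.3 to 128 CPM (median 104) in Q20 against 114 to 135 (median 127), with 7 of 8 below the mean (-0.24 ± 0.060, adjusted p = 0.023). Kcnc4 ranged from 55 to 67.1 CPM (median 60.2) against 63.1 to 74.4 (median 68.2), with 8 of 8 below (-0.18 ± 0.045, 0.023). Kcns1 ranged from 10.6 to 17.8 CPM (median 13.7) against 15.9 to 21 (median 17.4), with 7 of 8 below (-0.35 ± 0.088, 0.024). The ranges of these 3 overlapped in part.

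Kcnn3, a small-conductance calcium-activated channel, ranged from 5.99 to 8.73 CPM (median 7.25) against 2.32 to 6.29 (median 5.12), higher in 8 of 8 (0.56 ± 0.15, adjusted p = 0.028). Kcnab2 ranged from 340 to 405 CPM (median 362) against 385 to 440 (median 417), lower in 8 of 8 (-0.17 ± 0.044, 0.028). Kcna4, a pore subunit with fast inactivation, rose by 0.31 ± 0.083 (adjusted p = 0.030). Kcna5, Kcnj9, Kcnc4, Kcns1 and Kcnab2 were also called in Q92 at 6 months, each with the other sign; the overlap was not tested.

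The striatal markers moved with these differences, with 14 of 15 called higher and 0 lower in Q20 at 10 months (median 1.16), and 6 of 6 cholinergic markers higher. With the striatal level as a covariate 0 members were called and Kcna5 stood at 0.11 (adjusted p = 0.90). Against both wild-type groups Kcna5 was 0.80 (adjusted p = 0.072) and 1 member was called. With the L code (a part of each sample name, of unstated meaning) as a factor 0 members were called, and Kcna5 was 1.19 (adjusted p = 0.10). Leaving out 1 library gave 0 to 14 calls, with 0 without Q20 male replicate 4 and 14 without Q20 female replicate 4. Kcna5 lost its call without Q20 male replicate 1 (0.053) or 4 (0.057), and each of the other 6 lost it in 3 to 7 of 47 refits, the highest adjusted p being 0.11 for Kcna4 without Q20 male replicate 4.

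In Q140 at 10 months a single member was called, Kcnk13 (1.22% of 82, against 1.2% of all genes, 0.477% higher and 0.719% lower). Kcnk13 encodes a leak channel that in mouse brain is known from microglia, where it sets the resting potential. It ranged from 4.79 to 6.11 CPM (median 5.49) in the 7 Q140 libraries and from 6.14 to 8.51 (median 7.04) in the 16 wild types. Every Q140 library lay below every wild type, and the difference was -0.38 ± 0.067 (adjusted p = 0.00058). The call held in all 47 refits without 1 library and in all 11 alternative fits, where adjusted p-values reached at most 0.0068. DESeq2 called 3 members and limma 2 in this comparison, all lower.

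Kcnk13 at 10 months was 0.07 ± 0.071 in Q20, -0.03 ± 0.070 in Q50 and -0.08 ± 0.062 in Q92, none called. At 6 months it was -0.15 ± 0.065 in Q140 (adjusted p = 0.21). The change of the Q140 difference between the ages was -0.22 ± 0.093 (adjusted p = 0.22) and was not called, so a difference between ages was not shown.

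The 5 microglia markers, by contrast, were not called in Q140 at 10 months, with log2 differences from 0.01 (Csf1r, a growth factor receptor of microglia) to 0.06 (Cx3cr1, a chemokine receptor of microglia). Their level was 5.24 to 5.45 log2 CPM in Q140, 5.23 to 5.41 among wild types of the Q20 housing and 5.14 to 5.34 in those housed with Q50. Of 8 oligodendrocyte markers 6 were lower (median -0.35), and their part in the Kcnk13 result was not tested. With the striatal level as a covariate Kcnk13 was -0.38 (adjusted p = 0.00051).

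**Figure D4:**
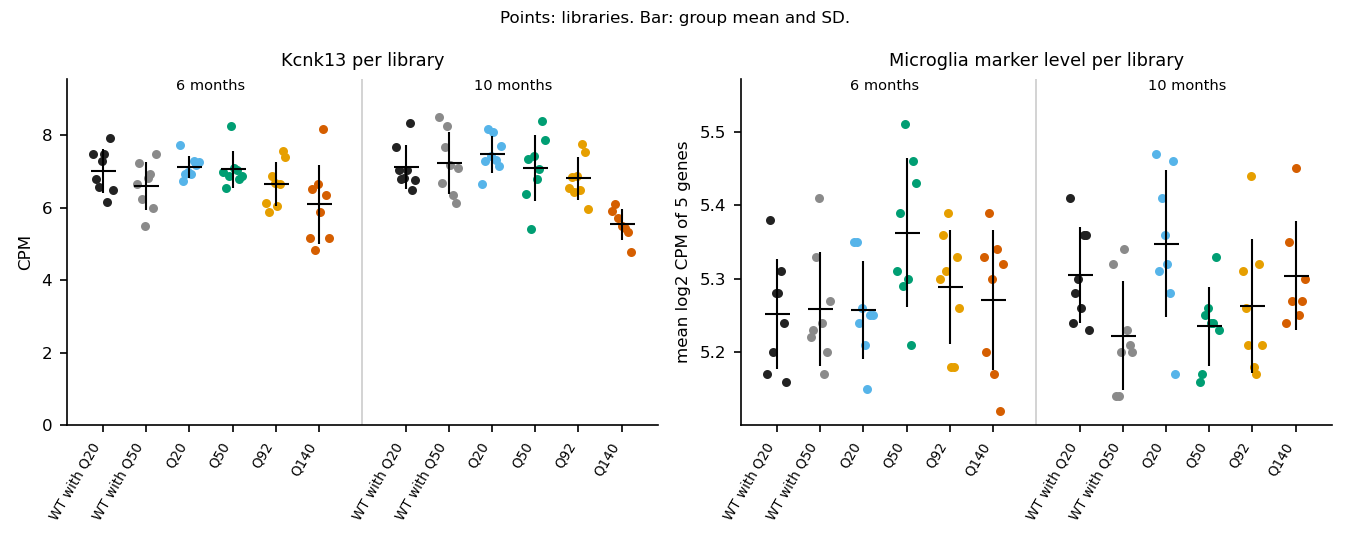
Values of every library by group for Kcnk13 (CPM, left panel) and the mean level of 5 microglia markers (log2 CPM, right panel), at 6 and 10 months; the bar is the group mean with its SD. At 10 months Kcnk13 was 4.79 to 6.11 CPM in Q140 and 6.14 to 8.51 in wild type.

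In Q92 and Q50 at 10 months 0 of 82 members were called (against 0.853% and 0.0561% of all genes, of which 0.00561% lower in Q50), with 16 and 2 at an unadjusted p below 0.05. DESeq2 called 1 member in Q92 and 0 in Q50, and limma 0 in both. In Q92 the nearest to the threshold were Kcnk15 (1.54 ± 0.43, adjusted p = 0.068), a leak channel gene with a mean of 0.128 CPM, and Kcnip2 (-0.14 ± 0.041, 0.071). Kcnip2 was -0.10 ± 0.042 in Q140 (adjusted p = 0.30). Kcna5 had wide ranges in both long-repeat lines at this age. In Q140 it was 3.79 to 6.82 CPM in females and 1.5 to 2.53 in males, the reverse of the order in Q20. The striatal level was 4.59 to 5.37 log2 CPM in these females and 3.86 to 4.13 in the males. The fit has a single sex term shared by all groups of an age, and sex differences within a line were not tested. The Kcna5 difference was 0.31 ± 0.25 in Q92 and 0.36 ± 0.26 in Q140 (adjusted p = 0.60 for each). Against the wild types housed with Q20 alone, however, 10 members were called in Q92 and 10 in Q140, and against those housed with Q50 alone 0 and 1. Between these wild-type groups themselves 7.02% of all genes were called at 10 months. The counts against either group alone therefore do not show a result particular to Kcn genes.

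The relation to repeat length was estimated as a slope per 100 CAG repeats, using only the 4 knock-in lines. At 6 months 0 members rose and 2 fell (2.47% of 81, against 1.78% of all genes, 0.434% higher and 1.35% lower). Kcna5 averaged 5.15, 3.57, 2.10 and 2.92 CPM from Q20 to Q140, a slope of -0.78 ± 0.17 (adjusted p = 0.0063). The lowest mean was that of Q92 and not of Q140. Kcnip2 averaged 125, 119, 115 and 111 CPM, a slope of -0.13 ± 0.033 (adjusted p = 0.030) that lost its call in 7 of 32 refits, the weakest without Q20 female replicate 1 (0.085). All 15 striatal markers fell with repeat length too. With their level as a covariate 0 members were called, and Kcna5 had a slope of 0.10 (adjusted p = 0.73). That level itself ran with repeat length, at 4.77 to 6.01 log2 CPM in Q20, 3.88 to 5.23 in Q50 and 3.73 to 4.58 in Q140. The covariate fit therefore cannot separate the 2, and a lost call does not show that a slope was absent. With the L code as a factor 0 were called.

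At 10 months only Kcnk13 was called among the members (1.22% of 82, against 0.891% of all genes, 0.613% lower). It averaged 7.47, 7.09, 6.81 and 5.54 CPM from Q20 to Q140, a slope of -0.33 ± 0.059 (adjusted p = 0.0035), and held in all 31 refits without 1 library. With the L code as a factor the adjusted p was 0.054 at a slope of -0.30, and with the striatal level as a covariate it was 0.011. Kcna5 had a slope of -0.39 ± 0.25 (adjusted p = 0.53).

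Whether a line's difference from wild type changed between 6 and 10 months was tested by fitting both ages together, with 84 members. For Q92 the difference was higher at 10 months for 10 members and lower for 12 (26.2%, against 9.63% of 18187 genes, 5.88% higher and 3.74% lower). For Q20 it was higher for 1 and lower for 2 (3.57%, against 0.693%), for Q140 higher for 1 (1.19%, against 1.79%), and for Q50 0 were called by edgeR, DESeq2 or limma, with 0 of all genes called and 3 members at an unadjusted p below 0.05.

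Kcna5 was called in 3 of the 4 lines. Its difference at 10 months minus that at 6 months was 1.64 ± 0.29 in Q92 (adjusted p = 0.00010), 1.20 ± 0.29 in Q140 (0.019) and 1.44 ± 0.31 in Q20 (0.019). In Q50 it was 0.45 ± 0.31 and was not called. The 3 calls are not independent, because wild types of the Q20 housing enter the reference of Q20, Q92 and Q140. Mean Kcna5 in that wild-type group was 5.85 CPM at 6 months and 2.2 at 10 months. The mean of Q20 itself was 5.15 and 5.22 CPM, but its sexes moved apart. Q20 females ranged from 4.3 to 6.33 CPM at 6 months and from 2.79 to 4.77 at 10 months. Q20 males ranged from 3.93 to 5.6 CPM at 6 months and from 6.06 to 8.45 at 10 months. The part of sex in the age difference was not tested. Means were 2.1 and 3.73 CPM in Q92, 2.92 and 3.85 in Q140, and 4.67 and 4.09 in wild types of the Q50 housing. The Q140 call was lost without Q140 10-month female replicate 4 (0.11), and the Q20 call without 10-month male replicate 1 (0.053) or 4 (0.072). Kcnj9 moved the other way, by -0.33 ± 0.069 in Q92 (adjusted p = 0.00078) and -0.32 ± 0.080 in Q20 (0.034). Kcns1 changed by -0.42 ± 0.10 in Q92 (0.0046) and -0.46 ± 0.12 in Q20 (0.048). The Q20 calls of Kcnj9 and Kcns1 were lost in 12 and 46 of 95 refits, and by limma the Q20 count was 0.

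Among the other Q92 calls, Kcnk4 (-0.47 ± 0.11), Kcns3 (-0.36 ± 0.10) and Kcnv1 (-0.24 ± 0.068) had lower differences at 10 months, and Kcnh8 (1.18 ± 0.31), Kcne1l (0.68 ± 0.18) and Kcnd3 (0.28 ± 0.079) higher ones. All 6 had adjusted p-values of at most 0.014, and Kcnh8 lost its call without Q92 10-month female replicate 4 (0.061). Among scarce genes Kcnk15 had the widest change (3.14 ± 0.71, adjusted p = 0.0017). Its Q92 means were 0.0585 CPM at 6 months, with libraries at 0, and 0.269 at 10 months. The wild types moved the other way, from 0.156 to 0.0728 CPM (Q20 housing) and from 0.215 to 0.112 (Q50 housing). They too held libraries at 0 at both ages. The Q92 calls depended on the reference, with 1 member called for Q92 against the wild types housed with Q50 alone and 28 against those housed with Q20 alone. The same 2 counts were 0 and 13 for Q140. With the striatal level as a covariate 0 were called in Q20, Q92 and Q140.

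The 2 wild-type groups were also compared with each other. At 6 months 0 of 81 members were called (0.0903% of all genes, 0.0508% higher), with 8 at an unadjusted p below 0.05. DESeq2 called 1 and limma 0. Nearest to the threshold by edgeR was Kcnab1, at 99.4 CPM in those housed with Q20 and 84.8 in those housed with Q50. Its ranges did not overlap (0.22 ± 0.050, adjusted p = 0.051). At 10 months those housed with Q20 had 2 members higher and 1 lower than those of the Q50 housing (3.66% of 82, against 7.02% of all genes, 3.4% higher and 3.62% lower). Kcnn2, a small-conductance calcium-activated channel, ranged from 29.8 to 39.3 CPM (median 35.6) against 24.8 to 34.6 (median 29.3). It was higher in 8 of 8 with overlap, by 0.27 ± 0.059 (adjusted p = 0.0044), and held in all 47 refits without 1 library, but not by limma (0.067 and 0.068). Kcnc4 was 63.1 to 74.4 CPM (median 68.2) against 57.6 to 65.2 (median 60.9), also overlapping, a difference of 0.15 ± 0.045 (adjusted p = 0.028). Kcna4 was 13.9 to 19.1 CPM (median 17.7) against 18.4 to 23.4 (median 20.0), overlapping at the edge (-0.26 ± 0.083, 0.043). By limma 3 members were called, all lower, and by DESeq2 6. Kcna4 lost its call in 15 refits, the weakest without male replicate 1 of the wild types housed with Q50 (0.10), and Kcnc4 in 5, the weakest without female replicate 1 of those housed with Q20 (0.078). With the striatal level as a covariate all 3 lost their call, Kcnn2 at 0.20 (adjusted p = 0.12), Kcnc4 at 0.05 (0.62) and Kcna4 at -0.02 (0.92), and Kcnip2 (0.19) and Kcnj3 (-0.19) were called in their place (0.040 and 0.046). With the L code as a factor Kcnn2 alone of the 3 kept its call.

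Kcna5 differed between the wild-type groups by -0.90 ± 0.30 at 10 months (adjusted p = 0.059) and by 0.32 ± 0.13 at 6 months (0.45), without a call at either age. Of the 15 striatal markers 13 were lower in the wild types housed with Q20 at 10 months.

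Within the 32 wild-type libraries, deviations of the 26 called members from their group means were correlated with those of the striatal marker level, by permutation with Benjamini-Hochberg adjustment over the 26. Kcna5 had r = 0.70 and rho = 0.55 (adjusted p = 0.013 and 0.026 by permutation), r falling to 0.47 without the 2 farthest libraries. Kcnip2 had r = 0.67 and rho = 0.65 (0.013 and 0.013; 0.55 without the 2), and Kcnj5 r = 0.56 and rho = 0.57 (0.035 and 0.026; 0.51 without the 2). In the negative direction 4 genes passed by r, Kcnj3 (r = -0.69, rho = -0.59), Kcnt2 (r = -0.59, rho = -0.55), Kcnh7 (r = -0.58, rho = -0.55) and Kcnc2 (r = -0.52, rho = -0.63), with adjusted p-values of 0.013 to 0.021 for r by permutation. Kcna5 had r = 0.43 in the 16 libraries at 6 months and 0.84 in the 16 at 10 months. Kcnj9 (r = -0.26, adjusted p = 0.32) and Kcnk13 (r = 0.40, adjusted p = 0.14) did not pass by r, while Kcnk13 passed by rho (0.52, adjusted p = 0.049), all by permutation. Kcnh8 (rho = 0.54) and Kcnc4 (rho = -0.51) likewise passed by rho alone, each at an adjusted p of 0.026 by permutation (0.072 for r).

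**Figure D5:**
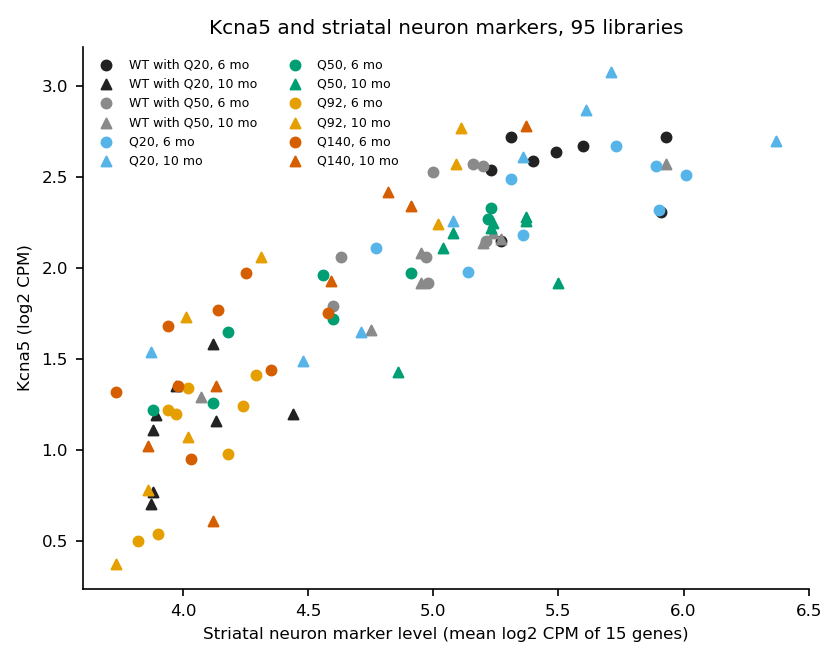
Each point is 1 of 95 libraries, with the striatal marker level (mean log2 CPM of 15 genes) on the horizontal axis and Kcna5 (log2 CPM) on the vertical axis; colour gives the group, circles 6 months and triangles 10 months. Libraries of Q92 at 6 months lie at marker levels of 3.82 to 4.29, and the wild types of that age at 4.60 to 5.93.

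Other genes of potassium handling were read from lists of 15 channel partners, 4 HCN channels and 11 pumps and cotransporters. In Q92 at 6 months 5 of the 29 tested were called, 2 higher and 3 lower (7.83% of all genes were called, 3.3% higher and 4.53% lower). With the striatal level as a covariate 0 of the 5 kept their call. Abcc8, the sulfonylurea receptor that pairs with the Kcnj11 pore, was higher by 0.21 ± 0.050 (adjusted p = 0.0043). Hcn4, a channel of the hyperpolarization-activated current, was lower (-0.70 ± 0.16, 0.0030), as were Hcn3 of the same family (-0.18 ± 0.058, 0.048) and Dpp6, a Kcnd partner (-0.10 ± 0.028, 0.024). In Q140 at 6 months Abcc8 was higher by 0.23 ± 0.050 (0.0032), while Kcnj11 itself was not called in either line. With the covariate Abcc8 was 0.17 in Q92 (0.96) and 0.19 in Q140 (0.39).

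In Q140 at 10 months the chloride cotransporter Slc12a7 was higher (0.35 ± 0.089, adjusted p = 0.033) and Atp1b3, a pump beta subunit, lower (-0.12 ± 0.033, 0.043). With repeat length at 10 months Lrrc26, an auxiliary subunit of Kcnma1 channels, fell by 0.56 (SE 0.14, adjusted p = 0.040). Between the wild-type groups at 10 months Slc12a7 was lower (-0.35 ± 0.10, 0.028) and Dlg4, a synaptic scaffold that binds Kcna channels, higher (0.13 ± 0.036, 0.027) in those housed with Q20.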

How the data were processed

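Messenger RNA of 95 cortex libraries was measured. Estimated counts per gene were deposited, with 68.1% of nonzero values whole within 1e-6, and so were FPKM values, which the authors scaled to gene length and depth. RNA was extracted with the Qiagen miRNeasy kit and made into Illumina libraries, per the labels. CASAVA 1.8.2 was used, per the submitters' processing notes. No aligner, build, annotation or strand setting is named: each is not given in the sources used here. Totals were 30.3 M to 41.1 M.

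Estimated counts were rounded and tested with edgeR 4.0.16 (R 4.3.3), by the quasi-likelihood test after filterByExpr (minimum count 10, minimum total 15) and TMM scaling. Each age was fitted as a whole, with a term for sex, leaving 17716 genes at 6 months and 17813 at 10 months. Age differences used 1 fit of all 95 libraries, and the repeat-length slope the 4 knock-in lines alone. CPM is TMM-scaled, and log2 CPM has a prior count of 1. Alternatives used DESeq2 1.42.0, limma 3.58.1 on log2(FPKM + 0.1) and log2(FPKM + 1) for genes of mean FPKM of at least 0.5, other filters, other wild types, a replicate term, the L code of the sample names and 1 library left out in turn. The marker-level covariate and the removal of 2 libraries over 13% mitochondrial were chosen after seeing the data. Scripts were tested on simulated data. No pair of libraries of 1 group agreed within sampling noise.

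Members and lists were chosen with earlier results of these data known. Named genes are every called member, or where more than 12 were called the 10 largest rises and 10 largest falls of mean at least 1 CPM, with 28 genes standing for the roles, the most and least abundant, and called partner genes. Library values are given for the 6 called members of smallest p. Members under 1 CPM (such as Kcnh8 and Kcnk15), Kcna6, and Hcn3 fall outside this rule and were named after their values were seen. Some genes that enter the counts are not reported here by name.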

Additional observations from a re-analysis of the deposited data

Results flagged for a closer look

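A library stood apart from the other 7 (or 6) of its line and age in 18 of 228 groups of 19 Kcn genes, by the gap between the extreme library and its nearest neighbour. Chance alone gives about 1 in 20. Values are log2 CPM. Female replicate 4 of Q50 at 6 months, a library with over 13% mitochondrial counts, was highest for Kcnc4 (6.29, nearest 6.10), Kcnip1 (4.77, nearest 4.54), Kcnk13 (3.05, nearest 2.83) and Kcns1 (4.39, nearest 4.07), and lowest for Kcnn3 (0.66, nearest 1.97). Male replicate 3 of Q92 at 6 months, the other library over 13%, was highest for Kcnab1 (6.66, nearest 6.47) and Kcnip1 (4.76, nearest 4.60) and lowest for Kcnn3 (0.35, nearest 2.31). The part of the mitochondrial share in these values was not tested.

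In Q20 at 10 months male replicate 4 was highest for Kcnab1 (7.15, nearest 6.69) and Kcnip2 (7.25, nearest 7.0), and male replicate 3 was lowest for Kcnv1 (6.34, nearest 6.64). In Q140 at 10 months female replicate 4 was highest for Kcna4 (4.73, nearest 4.44), male replicate 3 lowest for Kcnh8 (-2.13, nearest -0.90) and male replicate 1 lowest for Kcnk15 (-5.09, nearest -3.54). The Kcnh8 and Kcnk15 values lie near the floor, at 0.198 and 0.0 CPM, where few counts make wide log2 gaps. In Q50 at 10 months female replicate 3 was lowest for Kcna5 (1.43, nearest 1.92). Among wild types, female replicate 1 housed with Q50 at 6 months was lowest for Kcnc4 (5.69, nearest 5.96), male replicate 3 housed with Q20 at 6 months highest for Kcnh8 (0.34, nearest -0.42), and male replicate 2 housed with Q20 at 10 months lowest for Kcnn3 (1.23, nearest 2.15).

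The difference from wild type changed between 6 and 10 months for 24 pairs of gene and line given here, by the edgeR interaction test with Benjamini-Hochberg adjustment. In Q20 these were Kcna5 (1.44), Kcnj9 (-0.32) and Kcns1 (-0.46), and in Q140 Kcna5 (1.20). Mean Kcna5 in Q20 was 5.15 CPM at 6 months and 5.22 at 10 months, against 5.85 and 2.2 in its wild types. Values in parentheses are log2 differences at 10 months minus those at 6 months. In Q92 the value was higher at 10 months for Kcna5 (1.64), Kcnk15 (3.14), Kcnh8 (1.18), Kcne1l (0.68), Kcnrg (0.66, a regulator of potassium channels known from human cells), Kcnn3 (0.62), Kcng1 (0.37), Kcna4 (0.32), Kcnd3 (0.28) and Kcnd2 (0.18). It was lower in Q92 for Kcnk4 (-0.47), Kcns1 (-0.42), Kcns3 (-0.36), Kcnj9 (-0.33), Kcnj11 (-0.27), the calcium-activated channel subunit Kcnmb4 (-0.27), Kcnv1 (-0.24), Kcnc2 (-0.19), Kcnc4 (-0.19) and Kcnab2 (-0.17). In Q92, leaving out 1 of 95 libraries ended the call of Kcnrg in 25 refits, Kcnn3 in 24, Kcng1 in 23, Kcnmb4 in 16, Kcnj11 in 13 and Kcna4 in 8. In the same comparison 12 of 15 striatal and 6 of 6 cholinergic markers were higher at 10 months and 0 lower. Their part in these differences cannot be told apart from that of the line at 6 months.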

How the results depend on the processing

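Counts of called Kcn genes moved most with the wild types used and with the striatal marker level as a covariate, and the causes were not tested. Shares of all genes under these alternatives are not given, so the counts do not show a change particular to Kcn genes. With that covariate the counts were 0 for Q92 and Q140 at 6 months, Q20 at 10 months, the slope at 6 months and the age differences of Q20, Q92 and Q140, but 4 for Q92 and 3 for Q140 at 10 months. Of 64 values of named genes 60 lost their call under it, 2 kept it, and 2 turned sign without a call, Kcnj3 in Q92 at 6 months (-0.028) and the Kcna5 slope at 6 months (0.10). Against the wild types housed with Q20 alone the counts were 10 for Q92 and 10 for Q140 at 10 months, 8 for Q140 at 6 months and 13 for the age difference of Q140. Against those housed with Q50 alone they were 5 for Q92 and 1 for Q140 at 6 months, and 1 and 0 for their age differences. Against both wild-type groups they were 1 for Q20 at 10 months, 1 for Q50 at 6 months, and 0 and 1 for the age differences of Q20 and Q50.

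With DESeq2 the counts were 3 for Q140 and 1 for Q92 at 10 months, 6 and 1 between wild types at 10 and 6 months, 5 for the age difference of Q20, and 3 and 4 for the slopes at 10 and 6 months. With DESeq2 size factors 1 was called between wild types at 6 months. With limma at either pseudocount they were 2 for Q140 at 10 months, 12 for Q92 at 6 months, 0 for the age difference of Q20 and 2 for the slope at 10 months. With the L code as a factor they were 0 for Q20 at 10 months, both slopes and the age difference of Q140, and 1 for that of Q20. With a mean of 5 CPM they were 0 for the age differences of Q140 and Q20 and 1 for the slope at 6 months, and with no filter 1 for the age difference of Q20. Without the 2 libraries over 13% mitochondrial they were 8 for Q140 at 6 months, 1 between wild types at 6 months, 6 for the age difference of Q20 and 5 for the slope at 6 months.

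Replicate numbers did not visibly pair the libraries at 6 months, and at 10 months the picture was less clear. Same-numbered libraries correlated by a median of -0.001 at 6 months and 0.016 at 10 months in their deviations, and 7 of 48 and 20 of 47 libraries correlated best with their own number. With the replicate block the counts were 1 for Q92 at 10 months and 1 for the slope at 6 months, and the other 14 counts stayed within 1.5 times.

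Leaving out 1 library at a time gave 13 to 22 calls for Q92, 2 to 7 for Q140, and 0 to 0 for Q20 and Q50 at 6 months. At 10 months it gave 0 to 14 for Q20, 0 to 0 for Q50, 0 to 2 for Q92 and 1 to 3 for Q140. The slopes gave 1 to 5 at 6 months and 1 to 2 at 10 months, and the wild types 0 to 1 and 1 to 9. The age differences gave 0 to 11 for Q20, 0 to 0 for Q50, 14 to 26 for Q92 and 0 to 3 for Q140. Low counts kept 13 members out of the 6-month fit and 12 out of the 10-month fit.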
